A study of Mus musculus with 30 samples.

Results

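The genes described here are 10 imprinted genes that are often grouped as a network controlling embryonic growth: *Dlk1*, *Meg3*, *Rian*, *Peg3*, *Zim1*, *Peg10*, *Mest*, *Grb10*, *Plagl1* and *Ndn*. They were taken by gene name from the deposited expression table and joined by Ensembl identifier to the count table, where all 10 were found among 50833 autosomal genes. The libraries are polyadenylated RNA from forelimb buds of wild-type Swiss Albino mouse embryos. The text of the study speaks of total RNA-sequencing and names no selection step for polyadenylated RNA. Pregnant females were injected at E10.5 with Wnt-C59 (C59), an inhibitor of the acyltransferase porcupine that blocks the secretion of WNT ligands, or with the solvent DMSO, and buds were dissected 1, 6, 12, 18 or 24 h later. Each of these 10 groups had 3 libraries, 30 in all. The C59 vehicle also held methylcellulose and Tween, which the solvent of the controls did not, so that the drug and these carriers cannot be told apart. C59-treated buds were staged by the time elapsed and by their size and shape.

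An imprinted gene is transcribed mainly from 1 of its parental copies, the choice being carried by DNA methylation laid down in the egg or sperm. *Dlk1*, *Peg3*, *Peg10*, *Mest*, *Plagl1* and *Ndn* are transcribed from the paternal copy, whereas *Meg3*, *Rian* and *Zim1*, and in most tissues *Grb10*, are transcribed from the maternal copy. Many of these genes are abundant in embryonic mesenchyme and are turned down after birth as growth slows. The counts do not separate the parental copies. In bulk tissue, fewer cells of a type and less RNA per cell cannot be told apart either.

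Libraries held between 18188636 and 38974885 counts, and the 10 genes together took between 0.659% and 0.879% of them. *Axin2*, a direct target of WNT/β-catenin signalling, checked the treatment: its log2 fold change (C59 over DMSO) was -1.97 ± 0.06 (SE) at 6 h, its lowest value, and -1.46 ± 0.06 at 12 h, and it passed the test at these times and at 1 h (-0.19 ± 0.04). The later values of *Axin2* were -0.15 ± 0.09 (18 h) and -0.08 ± 0.07 (24 h), and neither passed. A gene passed the test when the Benjamini-Hochberg adjusted p of edgeR's quasi-likelihood test, over all genes tested, was below 0.05. In 4 libraries (replicate 1 of DMSO at 1, 6 and 18 h and replicate 2 of C59 at 24 h) an rRNA gene took between 0.204% and 0.545% of the counts, against 1.95% to 2.91% in the other 26. Replicate 3 of C59 18 h also stood apart: the chi-square per degree of freedom of its counts against the other two of its group was 43.2 and 36.4, against 4.37 between these others. Values at 18 h are therefore also given without it where a call rests on it. Embryo sex was unbalanced: Y-linked transcripts (*Ddx3y*, *Eif2s3y*, *Kdm5d* and *Uty*, summed FPKM of at least 1) were present in all 3 C59 libraries and in 0 of 3 DMSO libraries of 6 h, and in 3 against 2 at both 1 h and 24 h. In 14 of the 30 libraries *Xist* was also at 1 FPKM or more beside the Y-linked transcripts, although the study describes each library as made from a single pair of buds. The summed Y-linked FPKM at 1 h was 21.2 to 38.2 in C59 and 0.0469 to 9.03 in DMSO, without overlap. At 1 h and at 6 h sex and treatment therefore cannot be told apart.

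In the GRCm38 annotation, 3 of the genes share the *Dlk1*-*Dio3* domain of chromosome 12. *Dlk1* (ENSMUSG00000040856, 109452823 to 109463336, plus strand) encodes a transmembrane protein with EGF repeats. *Meg3* (ENSMUSG00000021268, 109541001 to 109571726, plus strand) and *Rian* (ENSMUSG00000097451, 109603940 to 109661716, plus strand) are noncoding RNAs that carry small RNA genes. *Peg3* (ENSMUSG00000002265, 6703892 to 6730431, minus strand) and *Zim1* (ENSMUSG00000002266, 6671269 to 6696450, minus strand) are neighbouring zinc finger genes of chromosome 7. *Ndn* (ENSMUSG00000033585, 62346569 to 62350262, plus strand), which encodes the MAGE family protein necdin, lies elsewhere on chromosome 7. Chromosome 6 holds *Peg10* (ENSMUSG00000092035, 4747306 to 4760517, plus strand), a gene derived from a retrotransposon, and *Mest* (ENSMUSG00000051855, 30723547 to 30748465, plus strand), which encodes a protein of the α/β-hydrolase fold. *Plagl1* (ENSMUSG00000019817, chromosome 10, 13060504 to 13131694, plus strand) encodes a zinc finger transcription factor. *Grb10* (ENSMUSG00000020176, chromosome 11, 11930508 to 12038683, minus strand) encodes an adapter protein that restrains insulin and IGF signalling.

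The counts of these genes may be affected by transcripts that overlap them. The strand used in counting was not given in the sources used here, while the study computed FPKM as unstranded. *Copg2* overlaps *Mest* on the opposite strand over 912 bases and had 65509 counts in the 30 libraries, and *Gm26906* lies opposite *Meg3* over 3096 bases. The other annotated genes within the bounds of the 10, mostly small RNAs, had between 0 and 107 counts in all libraries together where they were in the count table.

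Promoters are shown for *Meg3*, *Peg3* and *Zim1*, because *Meg3* and *Peg3* were the ones among the 9 genes with a RefSeq promoter that held a searched motif, and because *Zim1*, the neighbour of *Peg3*, had the largest fitted decrease with C59. The sequences are the 250 bases before the start site, from RefSeq on GRCm38.p6, for *Meg3* (chr12:109540746-109540995, plus strand), *Peg3* (chr7:6730420-6730669, minus strand) and *Zim1* (chr7:6696433-6696682, minus strand). Capitals mark CTTTGA, the core that TCF/LEF factors bind, read on either strand (TCAAAG), or GGGGCCCC, a sequence bound by PLAGL1, which reads the same on both strands.
Meg3: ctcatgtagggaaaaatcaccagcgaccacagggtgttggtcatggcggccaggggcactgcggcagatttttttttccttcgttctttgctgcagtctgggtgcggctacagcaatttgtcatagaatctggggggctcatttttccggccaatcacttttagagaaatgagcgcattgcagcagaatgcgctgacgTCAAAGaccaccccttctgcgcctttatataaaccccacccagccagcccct
Peg3: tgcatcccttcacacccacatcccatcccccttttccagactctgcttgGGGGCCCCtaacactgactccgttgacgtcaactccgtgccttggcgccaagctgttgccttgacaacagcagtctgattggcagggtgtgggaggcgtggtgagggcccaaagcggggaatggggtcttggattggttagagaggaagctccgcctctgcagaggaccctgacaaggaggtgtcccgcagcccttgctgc
Zim1: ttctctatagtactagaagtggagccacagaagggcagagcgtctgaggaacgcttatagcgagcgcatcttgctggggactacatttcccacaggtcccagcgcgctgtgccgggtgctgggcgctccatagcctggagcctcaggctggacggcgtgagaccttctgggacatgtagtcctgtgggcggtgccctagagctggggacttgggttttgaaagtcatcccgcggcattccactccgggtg
The match in *Meg3* began 52 bases before the start site and the match in *Peg3* 201 bases before it. Over windows of 300 bases (250 before to 50 after the start), CTTTGA was found in 16% of 32851 mouse promoters and GGGGCCCC in 1.08%. The other listed promoters of the 10 genes held neither motif. CG dinucleotides numbered 45 in the upstream *Grb10* promoter, 26 in *Plagl1*, 20 in *Zim1*, 13 each in *Peg3* and in the first *Meg3* promoter and 0 in *Rian*, against a median of 7 over all promoters. A match is a description of these letters, and binding was not measured here.

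Several of the RNAs also carry microRNAs, and the mature forms listed by RefSeq are shown because their genes lie within the members. Capitals mark the seed, bases 2 to 8. The microRNAs themselves are not measured in libraries of polyadenylated RNA.
miR-335-5p: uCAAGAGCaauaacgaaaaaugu
miR-770-5p: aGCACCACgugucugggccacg
miR-341-3p: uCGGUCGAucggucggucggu
miR-370-3p: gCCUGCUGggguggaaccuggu
The first lies in an intron of *Mest* (chr6:30741314-30741336), the second in an annotated exon of *Meg3* (chr12:109563710-109563731), and the other two in introns of *Rian* (chr12:109611556-109611576 and chr12:109618305-109618326), all on the plus strand. No seed was shared among the 4.

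Levels between genes were compared as FPKM, which are scaled by transcript length. In DMSO limb buds at 1 h the order ran from *Mest*, at 1122 FPKM ± 30.3 (SD, n = 3), through *Grb10* at 277 ± 8.83, *Peg10* at 207 ± 14.5, *Peg3* at 132 ± 10.01 and *Dlk1* at 94.8 ± 3.44 to *Rian* at 71.8 ± 10.3 and *Meg3* at 53.1 ± 12.4. *Ndn* at 26.3 FPKM ± 0.561, *Plagl1* at 14.3 ± 1.17 and *Zim1* at 6.33 ± 0.252 were the lowest. Only *Rian* and *Meg3* had overlapping ranges among neighbours in this order. *Mest* ranked 46th by its mean over the 30 libraries among 16670 genes above 0.1 FPKM, and *Grb10* ranked 151st, whereas *Zim1* ranked 7527th. By 24 h *Dlk1* stood next after *Mest* and *Grb10*, at 149 FPKM ± 6.12, and *Plagl1*, at 43.2 ± 4.63, stood above *Ndn*, at 35.7 ± 1.21, without overlap. At that time *Peg3* (115 FPKM ± 8.69), *Rian* (107 ± 8.29) and *Peg10* (105 ± 4.99) were not separated, because each overlapped the next.

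**Figure D1:**
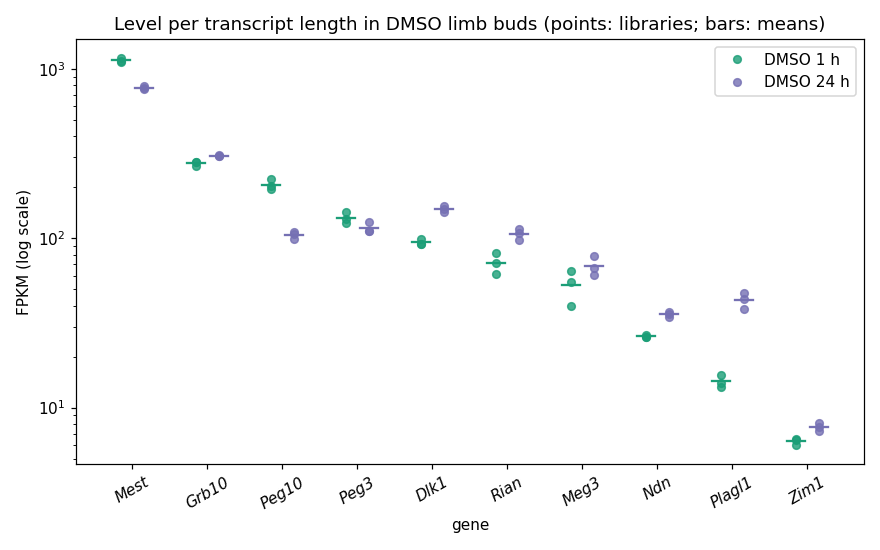
FPKM (log axis) of the 10 genes in the 3 DMSO libraries of 1 h and the 3 of 24 h; points are libraries and bars are means. *Mest* was highest and *Zim1* lowest at both times, while *Peg10* went from 207 to 105 FPKM and *Plagl1* from 14.3 to 43.2.

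The genes differed in how much they varied among replicates. The coefficient of variation of the normalised read count (CPM, counts divided by the library total and scaled by TMM) had a median over the 10 groups of 15.2% for *Meg3*, of 9.38% for *Peg3* and of 8.77% for *Plagl1*, against 2.86% for *Ndn*, 2.95% for *Mest* and 3.31% for *Grb10*. *Meg3* and *Rian* varied together within groups: the library with the lowest *Meg3* of its group had the lowest *Rian* in 8 of 10 groups, and the highest was shared in 7. In 8 of 10 groups the library highest in *Peg3* was also highest in *Zim1*, and in 7 it was highest in *Peg10*, while the lowest library was shared in 6 of 10 for each pair. Libraries of a group share a tissue but may differ in stage and sex, and these counts are a description.

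The course of normal development was read from the DMSO libraries, as the change from 1 h to 24 h. *Plagl1* rose and *Peg10* and *Mest* fell, while *Dlk1*, *Rian* and *Ndn* rose by less. In all, 6 of the 10 genes passed the test, 4 of them higher and 2 lower, where 50.7% of all 16058 genes tested passed (25% higher and 25.6% lower). *Plagl1* and *Peg10* also changed by more than 1 on the log2 scale, as did 11.7% of all genes that were tested. The median log2 fold change of the 10 was 0.24, and that of all genes was -0.01.

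*Plagl1* stood at 91.0, 86.6 and 102 CPM in the DMSO libraries of 1 h and at 284, 241 and 278 CPM in those of 24 h. The groups were far apart, with a log2 difference of 1.51 ± 0.12 (SE; edgeR adjusted p 1.18e-08). *Peg10* moved the other way, from 1687, 1626 and 1909 CPM to 861, 846 and 794 CPM. All late libraries lay below all early ones, and the fitted change was -1.07 ± 0.09 (SE; edgeR adjusted p 2.5e-08). *Mest* went from 2409, 2277 and 2331 CPM to 1509, 1543 and 1529 CPM. It remained the most abundant per length, although its log2 fold change was -0.62 ± 0.04 (SE; edgeR adjusted p 3.12e-10).

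Of the genes with smaller increases, *Dlk1* had a log2 fold change of 0.55 ± 0.06 (SE; edgeR adjusted p 1.65e-06), *Rian* of 0.49 ± 0.12 (edgeR adjusted p 0.00168) and *Ndn* of 0.36 ± 0.05 (edgeR adjusted p 3.42e-05). *Meg3* (0.27 ± 0.18), *Zim1* (0.19 ± 0.09), *Grb10* (0.06 ± 0.04) and *Peg3* (-0.28 ± 0.12) did not pass. *Peg3*, at an edgeR adjusted p of 0.0574, lay close to the threshold, and passed without replicate 2 of DMSO 6 h, replicates 1 or 2 of DMSO 18 h or replicate 1 of DMSO 24 h (edgeR adjusted p 0.0202 to 0.0496). *Grb10* lay between 1686 and 1976 CPM in all 15 DMSO libraries. It passed with upper-quartile factors (0.10, edgeR adjusted p 0.0327) and with limma on FPKM (0.15, 0.00832), as did *Zim1* (0.23, 0.0461; 0.25, 0.0319).

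Step by step, the changes fell at different times. *Mest* alone of the 10 passed from 1 to 6 h (log2 fold change -0.18 ± 0.04) and from 6 to 12 h (-0.24 ± 0.04), where 5.77% and 3.93% of all genes passed. From 12 to 18 h 4 genes passed, 3 of them higher: *Plagl1* (0.77 ± 0.11), *Meg3* (0.69 ± 0.18) and *Rian* (0.42 ± 0.12), with *Mest* lower (-0.13 ± 0.04). In that step 12.2% of all genes passed, 6.04% higher and 6.13% lower. *Dlk1* (0.40 ± 0.06) and *Peg10* (-0.46 ± 0.09) passed from 18 to 24 h, where 10.1% of all genes did.

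The step of *Meg3* and *Rian* from 12 to 18 h rested partly on replicate 1 of DMSO 18 h, 1 of the 4 libraries low in rRNA. *Meg3* was at 319 CPM there and at 194 and 186 CPM in the other two, and *Rian* was at 279 against 215 and 210 CPM. Without that library the log2 fold changes were 0.39 for *Meg3* and 0.27 for *Rian*, and neither passed (edgeR adjusted p 0.0815 and 0.1). *Meg3* also lost the call without replicate 3 of DMSO 12 h (edgeR adjusted p 0.115), and *Rian* without replicate 1 (0.0767) or 3 (0.145). The step of *Mest* was lost without replicates 1 or 3 of DMSO 12 h or 2 or 3 of DMSO 18 h (edgeR adjusted p 0.0501 to 0.113). *Meg3* had fitted changes of -0.60 ± 0.19 from 1 to 6 h and 0.62 ± 0.19 from 6 to 12 h that did not pass (edgeR adjusted p 0.0714 and 0.0749) but did pass without replicate 1 of DMSO 18 h (0.00881 and 0.0104) or replicate 3 of DMSO 1 h (0.0264 and 0.0487). Single libraries also decided *Dlk1* and *Peg10* from 6 to 12 h, which passed without replicate 3 of DMSO 12 h (edgeR adjusted p 0.0183) and replicate 1 of DMSO 18 h (0.0486), respectively. From 18 to 24 h the same held for *Plagl1* without replicate 2 of DMSO 12 h (edgeR adjusted p 0.0485), *Ndn* without replicate 2 of DMSO 6 h (0.0382) and *Zim1* without replicate 2 of DMSO 18 h (0.039).

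**Figure D2:**
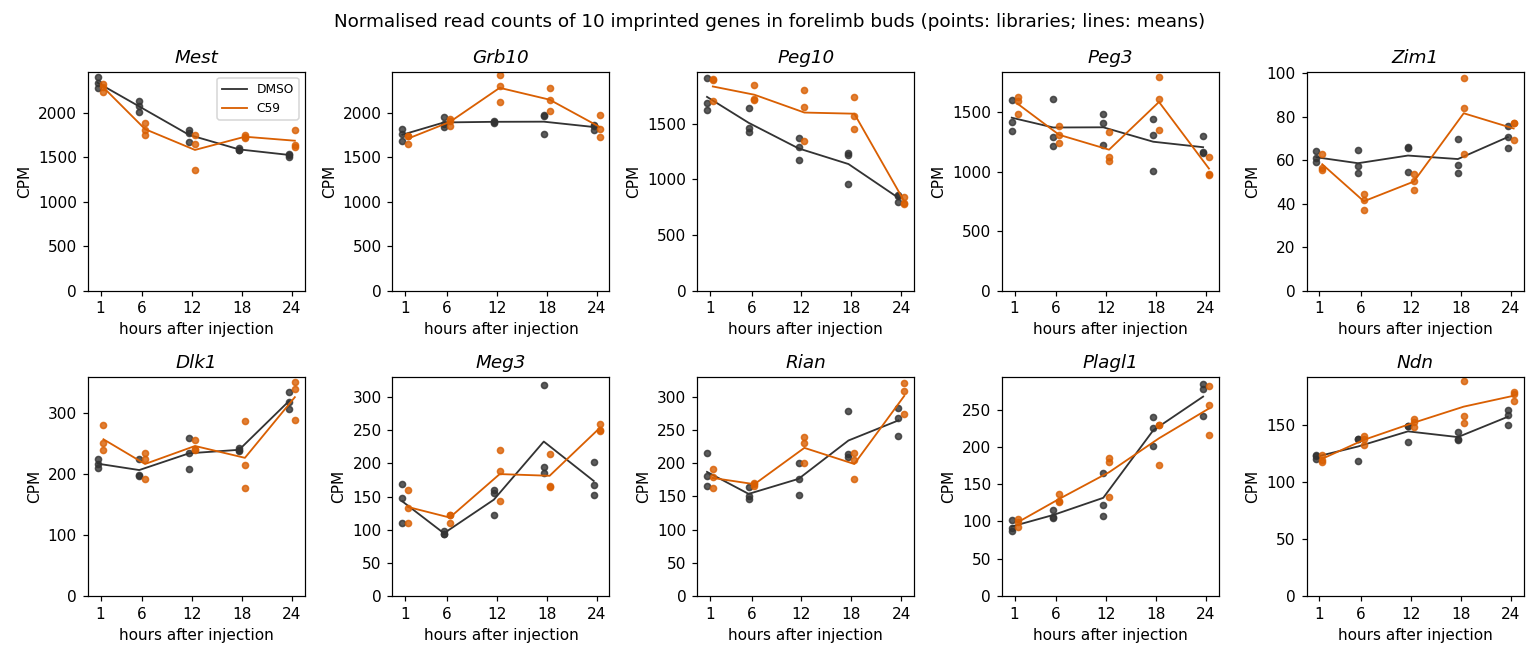
CPM of each gene against hours after injection; points are libraries (3 per group), lines join group means, and each axis starts at 0. In DMSO *Plagl1* goes from a mean of 93.1 to 268 CPM and *Mest* from 2339 to 1527, in C59 *Mest* goes from 2286 at 1 h to 1584 at 12 h and 1687 at 24 h, and *Zim1* in C59 lies below DMSO at 6 and 12 h.

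The main question of the series is what changes when WNT signalling is blocked and then recovers. No member changed by more than 1 on the log2 scale among those that passed at any time, a size that 0.505% of all genes reached at the 1 h time point, 1.52% after 6 h, 5.3% after 12 h, 1.27% after 18 h and 0.952% after 24 h. With the adjusted p alone, 1 of the 10 passed after 1 h, beside 2.5% of all genes, and 5 passed after 6 h, beside 17.1%. After 12 h 5 of the 10 passed, beside 43.1% of all genes. At 18 h edgeR called 0 of the 10 (5.69% of all genes did), and 1 passed after 24 h (5.21%). Of the 5 at 6 h, 3 were higher in C59 and 2 lower, against 7.02% and 10.1% of all genes, and at 12 h the split was again 3 and 2, against 20% and 23.1%. The share of members that passed at 12 h was thus near that of all genes. The median log2 fold change of the 10 was 0.06 at 6 h and 0.15 at 12 h, beside 0.01 and 0.03 for all genes.

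**Figure D3:**
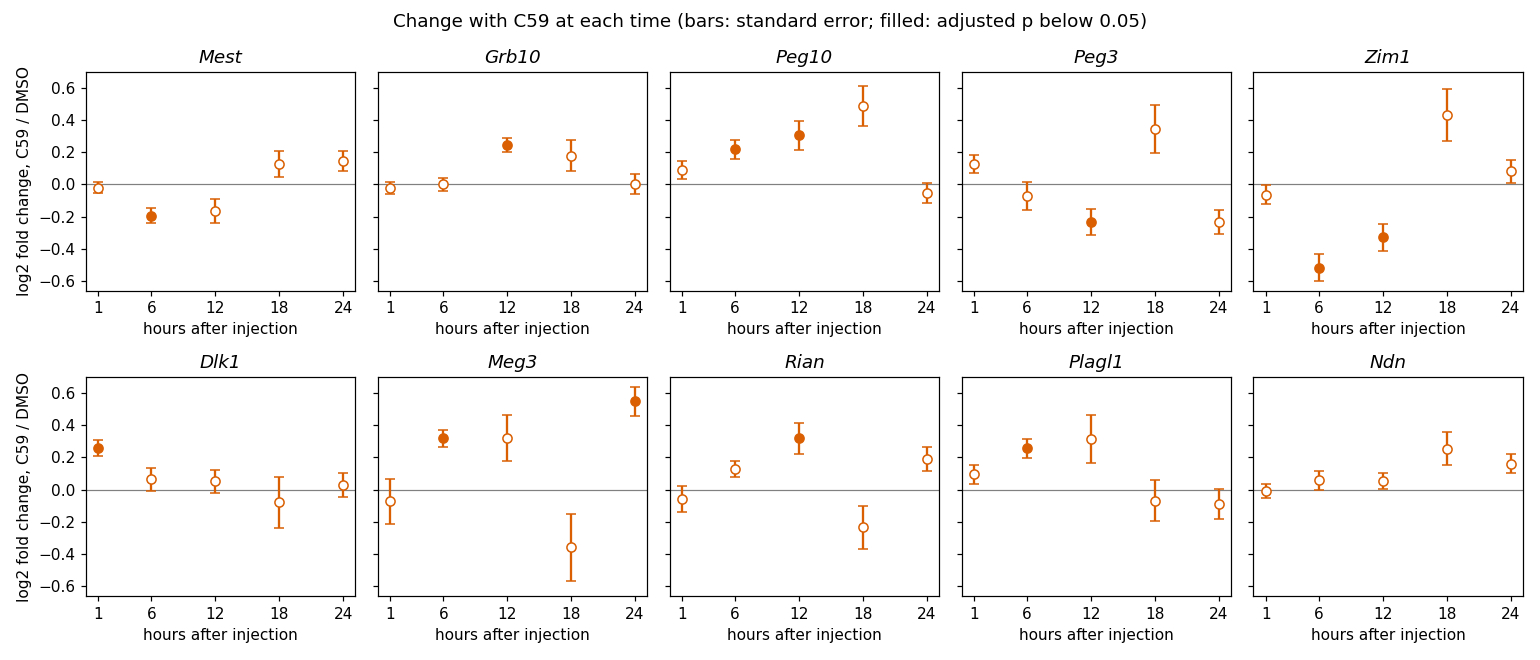
Log2 fold change (C59 over DMSO) of each gene against hours after injection, with the standard error; filled points passed the test. *Zim1* was at -0.52 at 6 h, *Grb10* at 0.25 at 12 h and *Meg3* at 0.55 at 24 h.

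*Zim1*, the maternally expressed neighbour of *Peg3*, had the clearest decrease. At 6 h it stood at 37.2, 41.9 and 44.4 CPM in C59 and at 54.2, 64.5 and 57.3 CPM in DMSO. The groups did not overlap, and the log2 fold change was -0.52 ± 0.08 (SE; edgeR adjusted p 0.000873). At 12 h the C59 libraries were at 46.2, 50.6 and 53.9 CPM and the DMSO libraries at 65.7, 66.3 and 54.7 CPM. They still did not overlap, with a log2 difference of -0.33 ± 0.08 (SE; edgeR adjusted p 0.00985). With limma on FPKM the 12 h call was lost at both pseudocounts (-0.25 and -0.29, limma adjusted p 0.074 and 0.0765), whereas the 6 h call was kept. At 1 h the difference was -0.06 ± 0.06, and the change of the C59 effect from 1 to 6 h passed (-0.44 ± 0.11 (SE); edgeR adjusted p 0.0129), as did 10.7% of all genes. That call was lost with the spread of all 30 libraries (edgeR adjusted p 0.129) and with limma (0.103 and 0.0934).

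The decrease of *Zim1* was not seen at 18 h, where C59 libraries had 97.7, 84.2 and 63.1 CPM and DMSO libraries 54.2, 69.9 and 57.7 CPM. These groups overlapped, and the fitted difference was 0.43 ± 0.16 (SE; edgeR adjusted p 0.159). Without replicate 3 of C59 18 h it was 0.58 and passed (edgeR adjusted p 0.0123). The change of the effect from 12 to 18 h was 0.76 ± 0.20 (SE; edgeR adjusted p 0.0367) and passed, as did 7.36% of all genes. That call was lost when any 1 of 9 of the 12 libraries was left out (edgeR adjusted p 0.0604 to 0.0966); it was kept without replicate 3 of DMSO 12 h, replicate 2 of DMSO 18 h or replicate 3 of C59 18 h. At 24 h the difference was 0.08 ± 0.07, and the change from 18 to 24 h (-0.35 ± 0.19) passed without replicate 3 of C59 18 h (-0.50, edgeR adjusted p 0.0294).

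*Peg3*, the paternally expressed partner in this domain, stood at 1128, 1338 and 1093 CPM in C59 at 12 h and at 1414, 1484 and 1226 CPM in DMSO. The ranges overlapped by 1 library on each side, and the log2 fold change of -0.23 ± 0.08 passed narrowly (edgeR adjusted p 0.0398). The call was lost without replicate 1 or 2 of DMSO 12 h or replicate 1 or 3 of C59 12 h (edgeR adjusted p 0.108 to 0.122). It was also lost with upper-quartile factors (-0.16, edgeR adjusted p 0.138), with the spread of all 30 libraries (-0.26, 0.0871) and with limma on FPKM (-0.15, 0.261 and 0.271). *Peg3* was at 0.34 ± 0.15 at 18 h and at -0.23 ± 0.07 at 24 h without passing (edgeR adjusted p 0.219 and 0.097), and passed at 24 h without replicate 3 of C59 24 h (-0.30, 0.0316) and at 1 h, where its fitted difference was 0.13 ± 0.05, without replicate 3 of DMSO 1 h (0.20, 0.0209). The changes of its effect from 12 to 18 h (0.57 ± 0.19) and from 18 to 24 h (-0.58 ± 0.18) did not pass (edgeR adjusted p 0.0826 and 0.0763). Without replicate 3 of C59 18 h both passed (0.0176 and 0.0132), and the later one also without replicate 2 of DMSO 18 h (0.0457). Without the libraries low in rRNA both changes were smaller, at 0.43 and -0.41, and neither passed (edgeR adjusted p 0.166 and 0.282).

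*Meg3*, the noncoding RNA of the maternal chromosome 12, was higher in C59 at 6 h and at 24 h. At 6 h it was at 123, 122 and 110 CPM in C59 and at 93.1, 97.4 and 93.2 CPM in DMSO. The groups did not overlap, and the log2 fold change was 0.32 ± 0.05 (SE; edgeR adjusted p 0.00136). At 24 h it was at 250, 260 and 250 CPM in C59 and at 202, 152 and 167 CPM in DMSO. Again there was no overlap, and the difference of 0.55 ± 0.09 was the largest fitted increase of any member that passed (SE; edgeR adjusted p 0.00458). Both calls were kept without any 1 library and were lost when the spread was estimated over all 30 libraries together (edgeR adjusted p 0.32 at 6 h and 0.0748 at 24 h).

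Between these times *Meg3* did not pass. The difference was 0.32 ± 0.14 at 12 h (edgeR adjusted p 0.0958) and passed without replicate 2 of C59 12 h (0.47, 0.00906). At 18 h it was -0.36 ± 0.21 (edgeR adjusted p 0.34), with the DMSO library at 319 CPM included. The change of the effect from 18 to 24 h, 0.90 ± 0.26, had an edgeR adjusted p of 0.0565 and passed without replicate 2 or 3 of DMSO 18 h or replicate 2 or 3 of C59 18 h (0.039 to 0.0455). Without the libraries low in rRNA, among them the DMSO library at 319 CPM, this change was 0.59 and did not pass (edgeR adjusted p 0.173). From 1 to 6 h the change was 0.40 ± 0.18 (edgeR adjusted p 0.179) and passed without replicate 3 of DMSO 1 h (0.56, 0.0213) and without a filter on low counts (0.40, 1.03e-05).

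*Rian*, transcribed from the same strand downstream of *Meg3*, passed at 12 h, where C59 libraries were at 240, 200 and 230 CPM and DMSO libraries at 177, 201 and 152 CPM. The lowest C59 library and the highest DMSO library touched, and the log2 fold change was 0.32 ± 0.10 (SE; edgeR adjusted p 0.0217). The call was lost without replicate 1 or 3 of DMSO 12 h or replicate 1 or 3 of C59 12 h (edgeR adjusted p 0.0585 to 0.0756). At 6 h its C59 libraries lay above the DMSO libraries without overlap, at 0.13 ± 0.05, but it did not pass (edgeR adjusted p 0.0967) unless replicate 1 of DMSO 6 h, a library low in rRNA, was left out (0.17, 0.0304). At 24 h the difference of 0.19 ± 0.08 passed without replicate 1 of C59 24 h (0.25, edgeR adjusted p 0.0475).

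*Dlk1*, the paternally expressed gene of the domain, was the member that passed at 1 h, with 279, 251 and 239 CPM in C59 and 223, 210 and 216 CPM in DMSO. The groups did not overlap, and the log2 fold change was 0.26 ± 0.05 (SE; edgeR adjusted p 0.0166). Leaving out replicate 2 of DMSO 1 h (edgeR adjusted p 0.0807), replicate 1 of C59 1 h (0.0843) or replicate 2 of C59 1 h (0.0529) ended the call, as did the spread of all 30 libraries (0.363) and limma on FPKM (0.186 and 0.195). Later differences of *Dlk1* were between -0.08 ± 0.16 (18 h) and 0.06 ± 0.07 (6 h), and none passed. Its C59 libraries spread widely at 18 h, at 176, 215 and 287 CPM, against 237 to 241 CPM in DMSO.

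Of the 2 genes on chromosome 6, *Peg10* was higher and *Mest* lower in C59 at 6 h. *Peg10* was at 1722, 1713 and 1845 CPM in C59 and at 1459, 1638 and 1427 CPM in DMSO, with a log2 difference of 0.22 ± 0.06 (SE; edgeR adjusted p 0.0223). *Mest* was at 1806, 1755 and 1891 CPM in C59 and at 2135, 2010 and 2073 CPM in DMSO, with a log2 difference of -0.19 ± 0.05 (SE; edgeR adjusted p 0.0105). Neither pair of groups overlapped. The *Peg10* call was lost without replicate 3 of DMSO 6 h or replicate 1 or 3 of C59 6 h (edgeR adjusted p 0.0598 to 0.114), and the *Mest* call without replicate 1 or 2 of C59 6 h (0.0694 and 0.0635). With limma on FPKM both were lost (adjusted p 0.0754 and 0.081 for *Peg10*, 0.23 and 0.251 for *Mest*), and *Peg10* also with the spread of all 30 libraries (0.166).

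*Peg10* passed again at 12 h and not at 18 h. At 12 h C59 libraries were at 1646, 1806 and 1348 CPM and DMSO libraries at 1368, 1294 and 1172 CPM, which overlapped by 1 library. The log2 fold change was 0.30 ± 0.09 (SE; edgeR adjusted p 0.0201), and the call was lost without replicate 3 of DMSO 12 h (0.0996) or replicate 2 of C59 12 h (0.0802), and with DESeq2 (0.0625). At 18 h its C59 libraries were at 1741, 1572 and 1456 CPM and its DMSO libraries at 956, 1235 and 1221 CPM. These did not overlap, but the difference of 0.49 ± 0.12 missed the threshold (edgeR adjusted p 0.0529) and passed without replicate 3 of C59 18 h (0.54, 0.0134). By 24 h the groups overlapped, at 779 to 839 CPM in C59 and 794 to 861 CPM in DMSO, with a difference of -0.05 ± 0.06.

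The change of the *Peg10* effect from 18 to 24 h was -0.54 ± 0.13 (SE; edgeR adjusted p 0.0304) and passed, as did 5.69% of all genes. It was kept without replicate 2 or 3 of DMSO 18 h or replicate 3 of C59 18 h and lost without any other 1 of the 12 libraries (edgeR adjusted p 0.0524 to 0.0978). *Mest* was at -0.17 ± 0.08 at 12 h (edgeR adjusted p 0.103) and passed there without replicate 1 of C59 12 h (-0.24, 0.022). At 18 h (0.13 ± 0.08) and 24 h (0.15 ± 0.06) the *Mest* libraries of C59 lay above those of DMSO in CPM without overlap, but did not pass, and in FPKM the groups overlapped at both times. The change of its effect from 1 to 6 h, -0.17 ± 0.05, had an edgeR adjusted p of 0.0532 and passed without replicate 1 of DMSO 1 h, replicate 2 of DMSO 6 h or replicate 3 of C59 6 h (0.0306 to 0.045).

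*Grb10*, the inhibitor of insulin and IGF signalling, was higher in C59 at 12 h. C59 libraries were at 2302, 2422 and 2119 CPM, whereas the DMSO libraries were close together at 1896, 1913 and 1887 CPM. The groups were separate, with a log2 difference of 0.25 ± 0.04 (SE; edgeR adjusted p 0.00107), and the call was kept in all 9 other settings and without any 1 library. At 6 h the difference was 0.00 ± 0.04, and the change of the effect from 6 to 12 h passed (0.25 ± 0.06 (SE); edgeR adjusted p 0.00818), as did 14.6% of all genes. With the spread of all 30 libraries this change no longer passed (0.22, edgeR adjusted p 0.0649). At 18 h the C59 libraries still lay above the DMSO libraries (0.18 ± 0.09, edgeR adjusted p 0.299), and at 24 h the difference was 0.00 ± 0.06.

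*Plagl1*, the transcription factor, was at 126, 137 and 128 CPM in C59 at 6 h and at 105, 116 and 106 CPM in DMSO. The groups did not overlap, and the log2 fold change was 0.26 ± 0.06 (SE; edgeR adjusted p 0.00911), a call lost without replicate 2 of C59 6 h (0.0508), with the spread of all 30 libraries (0.251) and with limma on FPKM (0.055 and 0.0593). At 12 h the difference was 0.31 ± 0.15 (edgeR adjusted p 0.116) and passed without replicate 2 of DMSO 12 h (0.50, 0.00914) or replicate 3 of C59 12 h (0.45, 0.0269). At 18 and 24 h it was -0.07 ± 0.13 and -0.09 ± 0.09. *Ndn* did not pass at any time: its differences were between -0.01 ± 0.04 at 1 h and 0.26 ± 0.10 at 18 h (edgeR adjusted p 0.184), although its C59 libraries lay above DMSO without overlap at 18 and 24 h.

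At 18 h, where edgeR called none of the 10, 4 had an unadjusted p below 0.05, as did 3455 of all 15398 genes tested. DESeq2 called 1 (*Peg10*), limma on log2(FPKM + 1) called 0, and edgeR with the spread of all 30 libraries called 5 (*Peg3*, *Grb10*, *Ndn*, *Peg10* and *Zim1*). Without replicate 3 of C59 18 h edgeR called 2 (*Peg10* and *Zim1*). Replicates varied most at that time, with a biological coefficient of variation of 13.4% over all genes, against 6.09% to 8.54% at the other times.

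Ratios of neighbouring genes within a library do not depend on how libraries are scaled. The log2 ratio of *Zim1* to *Peg3* counts in C59 lay below DMSO at 1 h, at -4.76 ± 0.083 (SD, n = 3) against -4.56 ± 0.0698, and at 6 h, at -5.00 ± 0.056 against -4.54 ± 0.0846. At 24 h it lay above, at -3.78 ± 0.109 against -4.09 ± 0.0583. The *Meg3* to *Dlk1* ratio in C59 was above DMSO at 24 h, at -0.36 ± 0.182 against -0.89 ± 0.201. The *Rian* to *Meg3* ratio was below DMSO at 6 h (0.51 ± 0.0702 against 0.70 ± 0.105) and at 24 h (0.25 ± 0.101 against 0.62 ± 0.105). In these 6 of the 15 comparisons the groups did not overlap. Each had an exact permutation p of 0.1 (two-sided), which is the smallest that 3 against 3 can give, and an adjusted p of 0.25 over the 15 tests, so the design could not reach 0.05. In the other 9 the ranges overlapped.

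**Figure D4:**
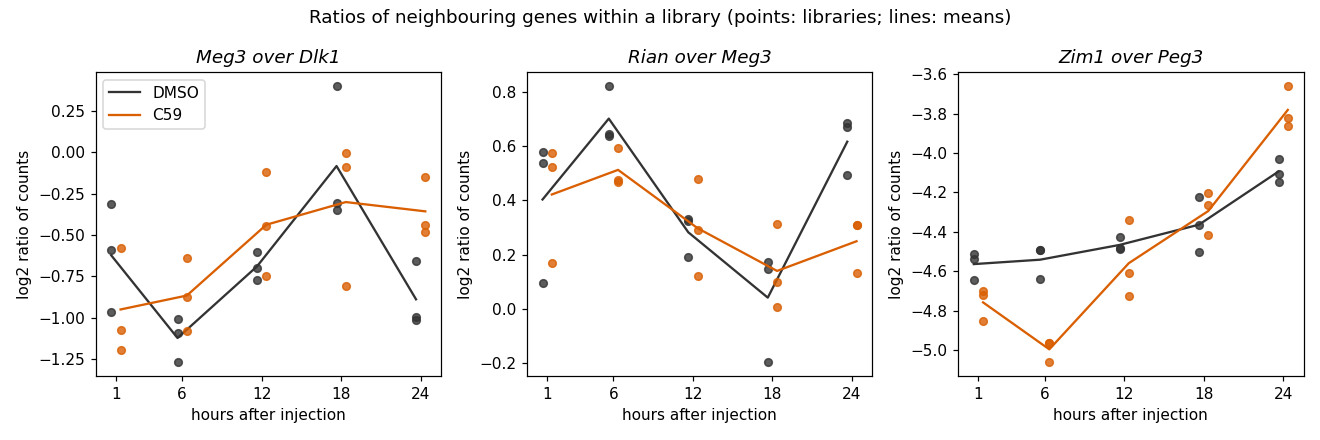
Log2 ratio of counts of *Meg3* to *Dlk1*, *Rian* to *Meg3* and *Zim1* to *Peg3* against hours after injection; points are libraries (3 per group) and lines join group means. The ratio of *Zim1* to *Peg3* in C59 is below DMSO at 6 h (-5.00 against -4.54) and above it at 24 h (-3.78 against -4.09).

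Other genes of the imprinted network, 9 genes listed for their place beside the members, were read the same way. At 12 h 5 of 9 passed, all of them higher after C59, where 43.1% of all genes did (20% higher and 23.1% lower). The median over the 9 was 0.28 on the log2 scale, beside 0.03 for all genes. *Cdkn1c*, an inhibitor of cyclin-dependent kinases, had the largest increase (0.81 ± 0.07), with 580, 547 and 466 CPM in C59 and 296, 314 and 284 CPM in DMSO. It had already passed at 6 h (0.35 ± 0.05), the only one of the 9 to do so, beside 17.1% of all genes. *H19*, a noncoding RNA, passed at 12 h (0.46 ± 0.04) and at 18 h (0.41 ± 0.09). It was the only one of the 9 at the later time, beside 5.69% of all genes. *Sgce* (0.54 ± 0.08), which shares a domain with *Peg10*, *Igf2r* (0.41 ± 0.11), the receptor that clears IGF2, and *Slc38a4* (0.23 ± 0.05), an amino acid transporter, were the others at 12 h. *Igf2*, the fetal growth factor, passed at 24 h (0.27 ± 0.06), as did *Gatm* (0.64 ± 0.09), an enzyme of creatine synthesis. These 2 stand beside 5.21% of all genes. None of the 9 passed at 1 h, beside 2.5% of all genes. Counts and FPKM differed for several of the 9, among them *Cdkn1c* at 18 h and *Igf2* at 12 h. In CPM C59 overlapped DMSO (264.6 to 443.5 against 312.3 to 344.5, and 704.7 to 923.1 against 713.2 to 729.9). In FPKM the groups did not overlap (579 to 689 against 435 to 503, and 1541 to 1777 against 1237 to 1269). *Gnas*, another of the 9, did not pass at 12 h, where C59 overlapped DMSO in CPM (49.1 to 60.5 against 49.3 to 55.8). Its FPKM did not overlap there (980 to 1022 against 857 to 904), nor at 24 h, where C59 was lower (916 to 958 against 970 to 1011). In DMSO at 1 h *Gnas* had a mean of 43.9 CPM beside 842 FPKM. At 18 h *Igf2* did not overlap in CPM or FPKM, but did not pass.

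Genes next to the members within their domains did not all move with them. Of 39 listed, 29 were tested at 12 h, and 11 passed higher and 4 lower, where 20% of all genes passed higher and 23.1% lower. Their median was 0.11, beside 0.03 for all genes. At 6 h 3 of 29 tested passed higher and 1 lower (7.02% and 10.1% of all genes), at 18 h 1 of 30 passed (5.69% of all genes) and at 24 h 2 of 29 (5.21%), both higher. *Dio3*, the thyroid hormone inactivating enzyme at the far end of the *Dlk1* domain, passed at 12 h (0.72 ± 0.26), at 18 h (1.19 ± 0.26) and at 24 h (1.28 ± 0.32). *Mirg*, a noncoding RNA downstream of *Rian*, passed at 12 h (0.50 ± 0.17), and *Rtl1* did not pass at any time. Beside *Plagl1*, which did not pass at 12 h, *Ltv1* was lower (-0.71 ± 0.07). Neither of the 2 tested neighbours of *Peg3* and *Zim1* passed at 6 or 12 h, and *Usp29*, 1 of them, was at -0.31 ± 0.11 at 6 h (edgeR adjusted p 0.0636). *Copg2*, the gene opposite *Mest*, was higher at 12 h (0.20 ± 0.05). Beside *Ndn*, *Magel2* was higher (0.39 ± 0.13) and *Peg12* lower (-0.45 ± 0.07) at 12 h.

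Among 27 further imprinted genes from other domains, 22 were tested at 12 h, where 9 passed higher and 2 lower. Of all genes, 20% passed higher and 23.1% lower at 12 h. The median of the 22 was 0.35, beside 0.03 for all genes. *Kcnq1ot1*, the noncoding RNA of the domain that holds *Cdkn1c*, had the largest increase of those that passed (0.93 ± 0.30), and *Nnat* the largest decrease (-0.27 ± 0.05). At 6 h 4 of 22 tested passed, all higher, led by *Zdbf2* (0.34 ± 0.11), beside 17.1% of all genes in either direction and 7.02% higher, and at 1 h none of 22 did. At 18 h *Slc22a18* alone of 23 passed (1.31 ± 0.24), beside 5.69% of all genes. At 24 h 1 of 23 passed higher and *Zdbf2* lower (-0.43 ± 0.11), beside 5.21% of all genes. These lists were chosen with results of the same libraries known, and their shares at 12 h stand beside the 43.1% of all genes that passed.

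**Figure D5:**
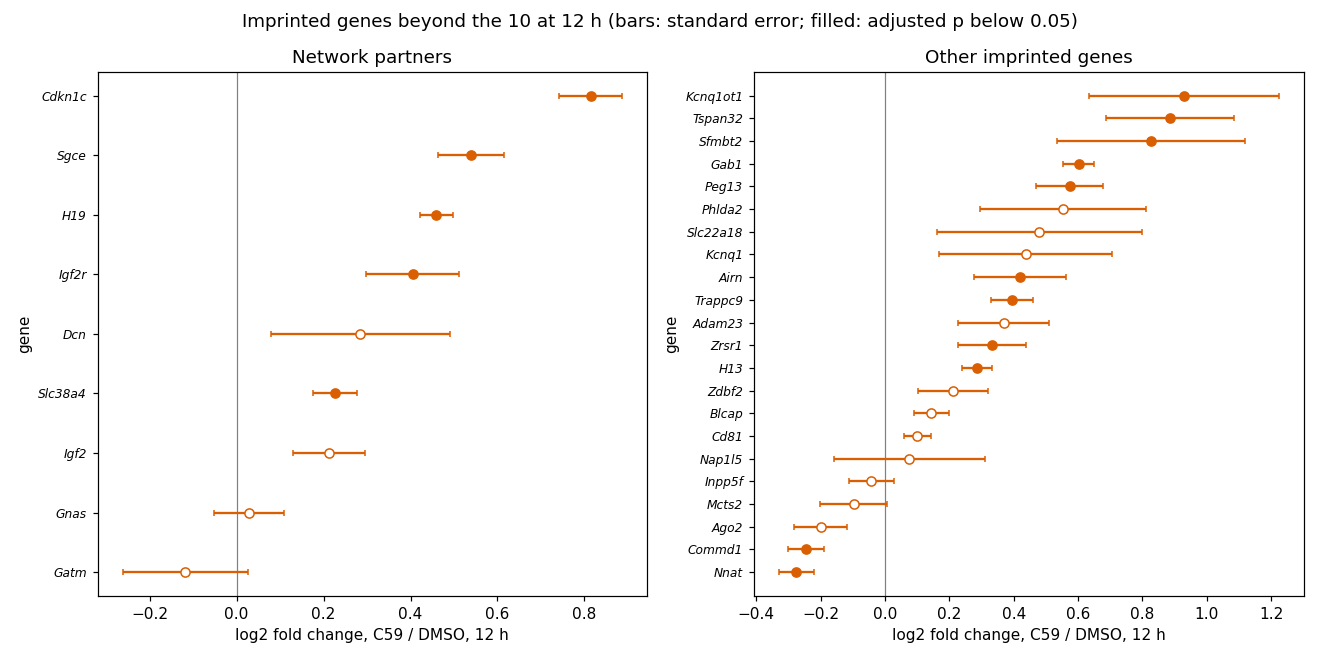
Log2 fold change (C59 over DMSO) at 12 h with the standard error of the 9 network genes and of the 22 tested imprinted genes of other domains; filled points passed the test. *Cdkn1c* was at 0.81 and *Kcnq1ot1* at 0.93, and *Nnat* at -0.27.

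Summed markers of several cell types that a limb bud holds differed between the groups at the times when members passed. They also differed at 18 h, when edgeR called no member. The summed CPM of 8 genes of cartilage condensation was 1940 to 2650 in C59 and 1030 to 1080 in DMSO at 12 h, and 1010 to 1210 against 902 to 940 at 6 h. For 10 muscle genes it was 239 to 308 against 172 to 227 at 12 h and 175 to 203 against 152 to 163 at 6 h, although at 12 h 5 of the 10 genes passed higher and 4 lower. The sum of 8 genes of limb mesenchyme was lower in C59, at 1320 to 1400 against 1900 to 2050 at 12 h and 1440 to 1570 against 2120 to 2170 at 6 h. Genes of surface ectoderm (8 genes, 364 to 496 against 257 to 288), endothelium (7 genes, 397 to 434 against 315 to 338), macrophages (7 genes, 49.1 to 53.0 against 29.8 to 33.6) and Schwann cells and neural crest (5 genes, 84.1 to 114 against 37.7 to 51.1) were also higher at 12 h, whereas erythroid genes overlapped (7 genes, 6520 to 9340 against 5130 to 7500). At 1 h, when *Dlk1* passed, limb mesenchyme was lower in C59 (1990 to 2100 against 2110 to 2140), and 3 of 7 erythroid genes passed higher, with overlapping sums (5810 to 8210 against 4460 to 5970). At 24 h, when *Meg3* passed, the sums of muscle (585 to 703 against 492 to 582), cartilage (1700 to 1890 against 1410 to 1550), surface ectoderm (369 to 406 against 312 to 323) and macrophages (60.6 to 65.9 against 50.9 to 55.1) were higher in C59, and that of endothelium was lower (279 to 311 against 328 to 339). At 18 h cartilage was again higher in C59 (1800 to 2090 against 1120 to 1290). Surface ectoderm (341 to 409 against 266 to 280) and macrophages (61.3 to 66.6 against 41.3 to 46.0) were higher too. The same held for Schwann cells and neural crest (91.1 to 109 against 63.6 to 77.2). Limb mesenchyme was lower (1420 to 1780 against 1810 to 1860), while muscle, endothelium and erythroid genes overlapped. The part of these sums in the differences of the members was not tested.

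Over the means of the 10 groups, the genes most like each member in pattern were found by Pearson correlation of log2 CPM among 13554 genes with a mean of at least 1 CPM. *Ski* was closest to *Ndn* (r = 0.985), *Chrnb1* to *Plagl1* (0.986), *Pm20d1* to *Peg10* (0.979), *Adh5* to *Mest* (0.974) and *Adh1* to *Zim1* (0.98). *Ggt7* was closest to *Rian* (0.97), *Dtx3* to *Meg3* (0.966), *Gcn1* to *Peg3* (0.964) and *Cacna2d3* to *Dlk1* (0.942), and *Prdm16os*, an antisense transcript, to *Grb10* (0.99). Within the 10, the closest pairs were *Meg3* and *Rian* (0.894), *Dlk1* and *Rian* (0.868) and *Plagl1* and *Ndn* (0.864), and *Plagl1* and *Mest* were the most opposed (-0.871). These values over 10 points share the developmental time of the groups and are given as a description.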

How the data were processed

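RNA-seq libraries of forelimb buds (30, in 10 groups of 3) were sequenced as paired reads. The authors trimmed reads with Cutadapt (1.16), mapped them to mm10 with STAR (2.7.0e), which also gave the counts per gene, and computed FPKM with Cufflinks (2.2.1), as their methods and processing notes state. The deposited counts are not normalised (50833 autosomal genes), and the deposited FPKM are scaled by transcript length and depth (55052 genes).

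Counts were tested with edgeR (4.0.16, TMM scaling, quasi-likelihood, filterByExpr at a count of 10 and a summed count of 15) on all genes, because keeping protein-coding genes would drop *Meg3* and *Rian*. All 10 genes passed the filter in each comparison. C59 was compared with DMSO on the 6 libraries of a time, changes of the effect on 12 libraries, and development on the 15 DMSO libraries. Adjusted p-values are Benjamini-Hochberg over all genes tested, and errors of fold changes are standard errors. For edgeR these were derived from the test, as the size of the log2 fold change over the square root of its F statistic. Log CPM used a prior count of 2. Ratios of counts were compared by exact permutation (scipy 1.17.1). Alternatives were DESeq2 (1.42.0), other scaling factors, no filter, protein-coding genes, a spread shared by 30 libraries, limma (3.58.1) on log2(FPKM + 1) and log2(FPKM + 0.1), a replicate block and leaving out each library. The fits were tried on simulated counts with the same small spread for every gene. That check does not cover a spread as wide as the 13.4% of 18 h. Libraries of a group came from different embryos per the methods, and their pairwise count chi-square per degree of freedom was 3.49 to 46.6, so none was a copy. The genes named are the 10 members, *Axin2*, and of each gene list those with the largest change that passed or, for network and domain genes, any. The members and the gene lists were chosen with earlier results of these data known.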

Additional observations from a re-analysis of the deposited data

Results flagged for a closer look

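In 4 cases the difference between C59 and DMSO itself differed between neighbouring time points by a test of that change (edgeR, adjusted p below 0.05). For *Zim1* the C59 effect moved by -0.44 on the log2 scale from 1 to 6 h (edgeR adjusted p 0.0129) and by 0.76 from 12 to 18 h (0.0367). *Grb10* moved by 0.25 from 6 to 12 h (edgeR adjusted p 0.00818), and *Peg10* by -0.54 from 18 to 24 h (0.0304). Without the 4 libraries low in rRNA, a setting chosen after seeing the data, the values were -0.50 (edgeR adjusted p 0.00886), 0.67 (0.093), 0.24 (0.014) and -0.46 (0.0802), in the same order as above.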

How the results depend on the processing

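Over the 30 calls of single genes that passed and 612 alternative settings of them, 526 settings kept the call, 86 lost it and 0 reversed it. The number of members that passed, as reported, was 1, 5, 5, 0 and 1 for C59 against DMSO at 1, 6, 12, 18 and 24 h, 1 for each of the 4 changes of the effect, and 6, 1, 1, 4 and 2 for DMSO 24 h against 1 h and the 4 steps from 1 to 24 h. With DESeq2 it was 1 at 18 h, 2 at 24 h, 2 for the change from 1 to 6 h, and 3 each for 12 to 18 h and 18 to 24 h. Upper-quartile factors gave 1 at 18 h. Without a filter on low counts it was 8 (12 h), 2 (18 h) and 2 (24 h), then 3, 5 and 4 for the changes from 1 to 6, 12 to 18 and 18 to 24 h, and 5, 6 and 6 for DMSO from 1 to 6, 6 to 12 and 18 to 24 h. With protein-coding genes only, which leaves out *Meg3* and *Rian*, it was 0 at 24 h, 2 for the change from 1 to 6 h and 2 for DMSO from 12 to 18 h. With a spread shared by all 30 libraries it was 0, 2, 5 and 0 at 1, 6, 18 and 24 h, 0, 0, 4 and 4 for the changes of the effect in order, and 0 for DMSO from 1 to 6 h. With limma, at both pseudocounts, it was 0, 2 and 3 at 1, 6 and 12 h, 0 for the changes from 1 to 6 and 12 to 18 h, and 1 for DMSO from 12 to 18 h. Without the 4 libraries low in rRNA it was 2, 0 and 0 for the changes from 1 to 6, 12 to 18 and 18 to 24 h and 2 for DMSO from 12 to 18 h. Leaving out 1 library gave 0 to 2 members at 1 h, 3 to 6 at 6 h, 3 to 5 at 12 h, 0 to 2 at 18 h and 1 to 2 at 24 h. For the changes of the effect it gave 1 to 2, 1 to 1, 0 to 2 and 0 to 4, and for DMSO 1 to 2, 1 to 3 and 1 to 4 in the first 3 steps. The log2 ratio of *Rian* to *Meg3* at 24 h differed by -0.48 with FPKM in place of counts (-0.37 with counts). The cause was not tested.

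Replicate numbers did not pair the libraries: same-numbered libraries had correlations of their deviations from -0.08 to 0.06, and 3 of 15 correlated best with their own number. With the number as a replicate block, 0 members passed for the change from 18 to 24 h (*Peg10*, -0.54, edgeR adjusted p 0.0587), and 2 each for DMSO from 1 to 6 h and from 6 to 12 h, where *Meg3* was added; *Plagl1* at 12 h and *Peg3* in DMSO from 1 to 24 h also passed. Over all genes, 376, 2548, 6551, 876 and 822 passed at 1, 6, 12, 18 and 24 h. Counts more than 1.5 times apart from these were 887 (no filter), 228 (shared spread), 51 and 43 (limma, pseudocounts 1 and 0.1) at 1 h, and 1075 and 1015 (limma) at 6 h. At 18 h they were 1499 (DESeq2), 1704 (no filter), 3888 (shared spread), 443 and 385 (limma) and 411 (replicate block), and at 24 h 1535 (no filter), 170 and 148 (limma). With 3 libraries a group, 1 library could decide a call, and at 1 h and 6 h sex and treatment cannot be told apart.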
